A study of Mus musculus with 2 samples.

Results

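T cells and natural killer (NK) cells were a small set of 64 cells among the 7418 kept cells of 2 single-cell RNA-seq libraries made from small B16F10 tumours, which are grafts of a mouse melanoma cell line. UMIs (unique molecular identifiers) each stand for 1 captured RNA molecule, and a barcode was kept as a cell where it detected between 200 and 5000 genes and mitochondrial genes took 7.5% of its UMIs or less. A T or NK cell was then a kept cell with a UMI for at least 2 of 10 marker genes, Cd3e, Cd3d, Cd3g, Trac, Trbc2, Nkg7, Ncr1, Klrb1c, Gzma and Cd8a. Its melanoma genes (Pmel, Dct, Mlana and Tyrp1) took under 0.5% of UMIs, and at most 1 of the macrophage complement genes C1qa, C1qb and C1qc was detected. The rule found 48 cells in the library from Atf4 WT/WT hosts and 16 in the library from Atf4 Δ/Δ hosts.

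Hosts of both genotypes carried the ubiquitous, tamoxifen-inducible Rosa26::CreER T2 recombinase and received tamoxifen, and in Atf4 Δ/Δ hosts the floxed exons 2 and 3 of Atf4 were excised in host cells. The grafted tumour cells kept their own Atf4 gene in both. Each library pooled 2 tumours, from hosts of 11 weeks labelled as pooled male and female, so each genotype had 1 library and no replicate. Counting intervals (95%, exact) therefore covered the sampling of cells or UMIs only, no p-value could be given, and every ratio between genotypes compared 2 libraries. The question behind the comparison was what the loss of host ATF4, a transcription factor of the integrated stress response, does to the cells around the tumour.

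T cells read their targets through a receptor of alpha and beta chains, which sees peptides on MHC molecules, or of gamma and delta chains. Both receptors signal through the CD3 complex, which Cd3d, Cd3e and Cd3g encode. NK cells lack that receptor, read target cells through activating and inhibitory receptors such as the Ly49 (Klra) and NKG2 (Klrc, Klrd1, Klrk1) families, and kill with perforin and granzymes. Both lineages restrain transplanted melanoma in mice, and both hold little RNA per cell beside macrophages and tumour cells.

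The libraries held 38417113 UMIs in 6304 barcodes (Atf4 WT/WT) and 38290024 UMIs in 5474 barcodes (Atf4 Δ/Δ), with a median of 3920 and 6279 UMIs per kept cell. The lowest barcode in either library had 500 UMIs. The 2 libraries shared 10 barcodes, and none of these was a T or NK cell. Scrublet called 2.95% and 1.41% of kept cells doublets, none of them among the 64. The sex-linked genes stood apart from the label of pooled male and female hosts. The 852 macrophage-like cells of the Atf4 WT/WT library (those with at least 2 C1q genes, called the C1q gate below) held 1522 UMIs of Xist, which is transcribed from the inactive X, and 0 UMIs of 4 Y-linked genes, whereas the 712 of the Atf4 Δ/Δ library held 173 and 132. Sex and genotype therefore cannot be told apart in the comparisons below.

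Among the 10 marker genes, Trbc2 has a near-identical neighbour, which limits how many of its reads can be assigned to it. Trbc1 (chr6:41538218-41539881) and Trbc2 (chr6:41546730-41548352) both encode the constant region of the T cell receptor beta chain, on the plus strand of GRCm38. Their first exons, of 375 bases, differed at 1 base, exon position 260, shown in capitals in this stretch of coding sequence from the GENCODE vM21 transcripts:
Trbc1 (chr6:41538447-41538506): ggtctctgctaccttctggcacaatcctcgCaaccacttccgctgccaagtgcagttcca
Trbc2 (chr6:41546959-41547018): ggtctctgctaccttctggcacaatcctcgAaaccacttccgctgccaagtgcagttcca
Over the whole coding sequence, 23 of 518 bases differed. Of the 602 windows of 91 bases (the read length) in the Trbc2 transcript, 201 (33.4%) also occurred in Trbc1, and a read from those cannot be given to 1 gene. The windows were counted evenly along the transcript, and the count tables do not show where the reads lay. Trbc1, which was not part of the rule, is set beside Trbc2 below for that reason.

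The cells were split by marker number into a T part, with UMIs for at least 2 of Cd3e, Cd3d, Cd3g, Trac and Trbc2, and an NK part. The NK part had no UMI for Cd3e, Cd3d, Cd3g or Trac, and held Ncr1 or Klrb1c, or both Nkg7 and Gzma. The Atf4 WT/WT library held 17 cells in the T part, 26 in the NK part and 5 in neither. The Atf4 Δ/Δ library held 10, 3 and 3. These parts are ranges of marker counts and not sorted populations.

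Most of the 64 cells were identified from 2 or 3 of the 10 markers. Exactly 2 markers were detected in 24 cells of the Atf4 WT/WT library, 3 in 16, 4 in 7 and 5 in 1. In the Atf4 Δ/Δ library 5 cells had 2 markers, 5 had 3, 4 had 4 and 2 had 5. Just outside the rule, 30 and 15 otherwise eligible cells had 1 marker. In the Atf4 Δ/Δ library 1 further cell had 2 markers but melanoma genes between 0.5% and 1% of its UMIs, and 1 had 2 C1q genes. In the Atf4 WT/WT library 1 cell with 2 markers had all 3 C1q genes.

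The rule genes of the CD3 complex lie side by side on chromosome 9, with Cd3g at chr9:44969572-44980431, Cd3d at chr9:44981786-44987339 and Cd3e at chr9:44998740-45009627. Cd3g had 20 UMIs in 11 cells of the Atf4 WT/WT library and 12 UMIs in 9 cells of the Atf4 Δ/Δ library. Cd3d had 9 UMIs in 7 cells and 10 in 8 cells, and Cd3e 11 in 10 cells and 4 in 4 cells. Each CD3 gene was thus seen in a minority of the cells of the Atf4 WT/WT library. Trac, the constant region of the alpha chain, had 7 UMIs in 7 cells and 6 in 4 cells. Trbc2 had 24 UMIs in 12 cells and 10 in 7 cells.

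Nkg7, a granule protein of cytotoxic lymphocytes, was the marker seen in most cells, with 69 UMIs in 36 of 48 cells and 19 UMIs in 13 of 16 cells. Gzma, which encodes granzyme A, had 181 UMIs in 28 cells of the Atf4 WT/WT library and 13 in 4 cells of the Atf4 Δ/Δ library. Ncr1, the activating NK receptor NKp46, had 8 UMIs in 8 cells and 0 UMIs in the Atf4 Δ/Δ library. Klrb1c, the NK1.1 antigen of C57BL/6 mice, had 11 UMIs in 9 cells and 1 UMI in 1 cell. Cd8a had 1 UMI in each library. These counts chose the cells and are given as a description.

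**Figure D1:**
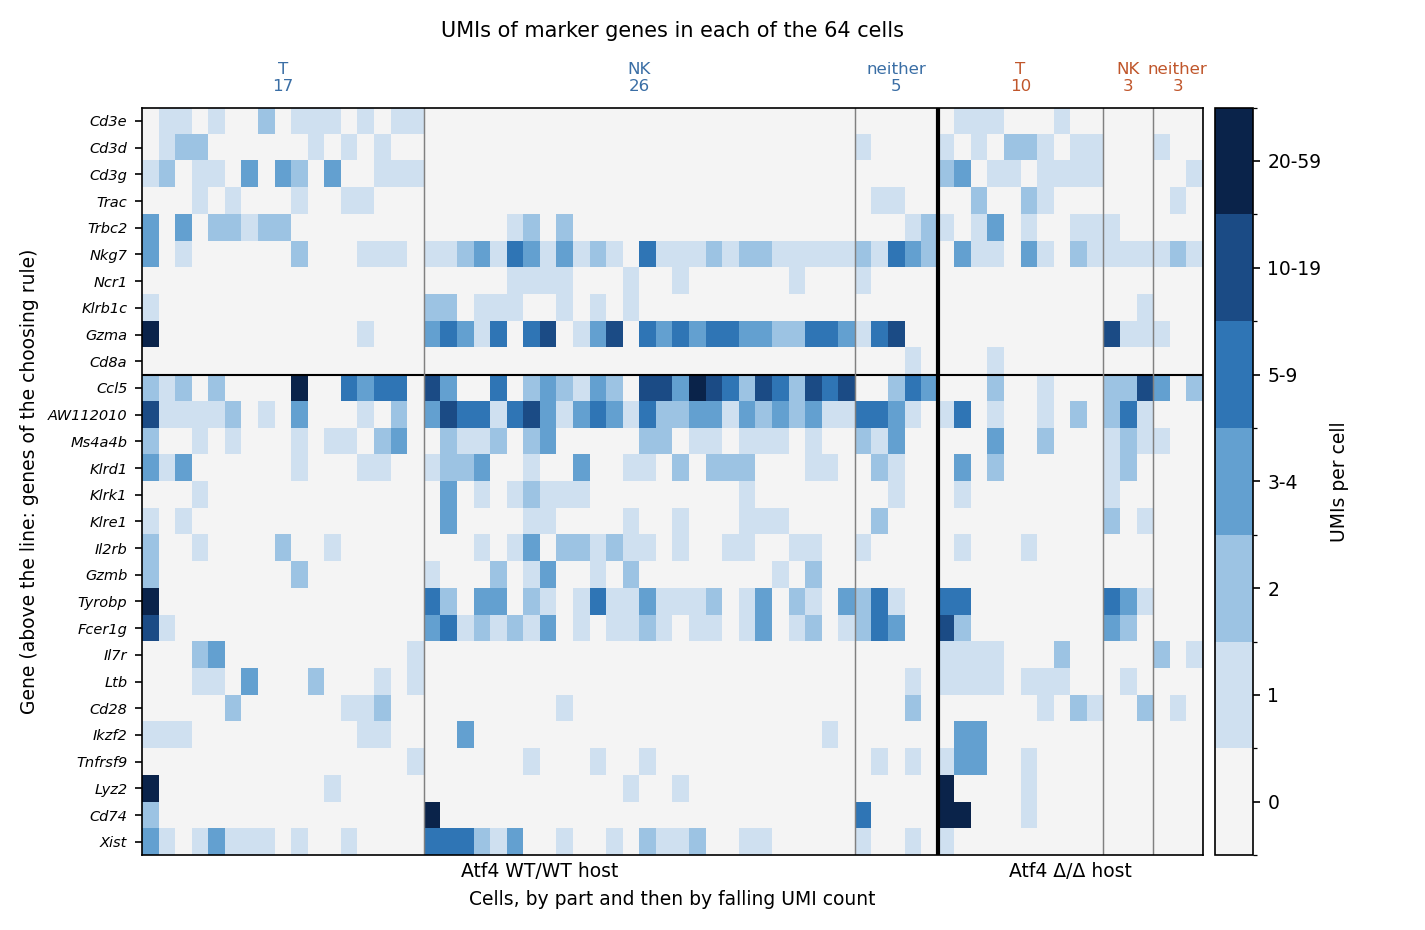
UMIs (colour scale) of the 10 genes of the rule, above the horizontal line, and of 18 further genes in each of the 64 cells, grouped by host genotype and part and ordered by UMI count within a part. Most squares hold 0 or 1 UMI, the NK part of the Atf4 WT/WT library is filled for Gzma, Ccl5 and AW112010, and Lyz2 and Cd74 are high in 4 cells only.

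Genes that the rule did not use were read to see whether these cells carried other lymphoid transcripts. A list of 20 such genes, including the signalling genes Lck, Zap70 and Cd247, the cytokine receptor chains Il2rb and Il2rg, and Ms4a4b, summed to 4651 CPM (UMIs of the list over all UMIs of the cells, on the usual CPM scale; interval 4030 to 5341) in the Atf4 WT/WT cells. The sum was 2881 CPM in the Atf4 Δ/Δ cells (2139 to 3799). In the C1q gate the same list gave 70.7 and 74.8 CPM, and in melanoma-gate cells (melanoma genes at 0.5% of UMIs or more) 171 and 181 CPM. All 20 genes had a UMI among the Atf4 WT/WT cells, 45 of the 48 cells held at least 1 of them, and 16 of the 16 Atf4 Δ/Δ cells did. At least 1 was also seen in 76.4% and 76.2% of the deeper melanoma-gate cells and in 14.7% and 15.7% of C1q-gate cells. At least 3 were seen in 27 of the 48 and 5 of the 16 T and NK cells. That share was 0.275% and 0.111% in melanoma-gate cells and 0.352% and 0.140% in C1q-gate cells. Otherwise eligible cells with 1 rule marker reached 1522 and 550 CPM, and those with 0 markers 189 and 129 CPM. The level was thus lower with 1 or 0 markers than with 2 or more, and among cells with 2, 3 or at least 4 markers it lay between 4262 and 5022 CPM in the Atf4 WT/WT library. The genes were picked with earlier results of these data known, and cells of 1 library are not replicates, so no test was made.

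At a fixed depth of 500 UMIs per cell, which every kept cell reached, Nkg7 was detected in 68.8% of the Atf4 WT/WT cells (75% at full depth) and 62.5% of the Atf4 Δ/Δ cells (81.2% at full depth). It was found in 0 of 852 and 0 of 712 C1q-gate cells at that depth, which allows up to 0.432% and 0.517%. The median depths were 714 and 788 UMIs in the T and NK cells and 2436 and 2332 in the C1q gate. Klrd1, encoding the CD94 chain of the NKG2 receptors, was detected at that depth in 39.6% and 25% of the T and NK cells (45.8% and 25% at full depth) and in 0 C1q-gate cells. Ccl5, a chemokine of cytotoxic lymphocytes, was detected in 64.6% and 31.2% (70.8% and 43.8% at full depth), against 1.17% and 0.843% of C1q-gate cells (2.23% and 2.67% at full depth). UMIs of these genes were thus rare in C1q-gate cells.

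Of the genes with at least 20 UMIs in the cells of a library, 78 of 278 (28.1%) in the Atf4 WT/WT library and 32 of 139 (23%) in the Atf4 Δ/Δ library were at least 2-fold higher than in all other kept cells. The 15 genes furthest above the other cells, with at least 50 UMIs, were led by the rule genes Nkg7 and Gzma, followed by Ms4a4b, AW112010 and Ccl5, which the rule did not use. The cells were chosen on their lymphoid genes, so these ratios are a description. Averaged over the libraries, the log2 ratio to all other kept cells was 9.39 for Ms4a4b, 8.12 for AW112010 and 6.43 for Ccl5. The list went on with Cd52, a small surface glycoprotein of lymphocytes (4.55), Vps37b (4.41) and the MHC class I genes H2-K1 (3.86) and H2-D1 (3.01). S100a4, Fxyd5, Emb and Srgn, the proteoglycan core of cytotoxic granules (2.84), were also among them. Xist and the MHC class II gene H2-Aa were also among the 15 and are no lymphoid markers. Xist differed between the libraries as described, and 3 cells described next held 32, 17 and 9 of the 62 H2-Aa UMIs.

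In 4 of the 64 cells, transcripts of antigen-presenting or myeloid cells stood beside the lymphoid ones. Each had over 10 UMIs of Lyz2, which encodes lysozyme of macrophages and monocytes, or of Cd74, the invariant chain of MHC class II. In the Atf4 WT/WT library, a T-part cell of 3174 UMIs held 45 of the 48 Lyz2 UMIs of that library's T and NK cells, together with 33 Gzma UMIs, 21 Tyrobp UMIs and 1 Cd3g UMI. In the NK part of the same library a cell of 2329 UMIs held 54 of 62 Cd74 UMIs and 32 of 36 H2-Aa UMIs, with 0 Lyz2 and 4 Gzma UMIs. Each was the deepest cell of its part, and they had 5 and 3 rule markers.

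Both such cells of the Atf4 Δ/Δ library were in the T part and were its deepest. One of 2917 UMIs held 51 of 52 Lyz2 UMIs, 28 of 51 Cd74 UMIs and 17 of 26 H2-Aa UMIs. The other, of 2308 UMIs, held 22 Cd74 and 9 H2-Aa UMIs and no Lyz2. No remaining cell of either library had more than 1 Lyz2 UMI or more than 6 Cd74 UMIs. Csf1r, the defining receptor of macrophages, had 1 UMI in each library, both in these 4 cells (the Atf4 WT/WT cell of 3174 UMIs and the Atf4 Δ/Δ cell of 2308). Scrublet called none of the 4 a doublet, and whether each is 1 cell or more was not tested beyond that. Results that moved without these 4 cells are given both ways.

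Markers of other cell types were otherwise low. The macrophage and monocyte list of 14 genes had UMIs for 9 and 6 of its genes and 1967 and 3861 CPM, against 31704 and 31917 CPM in the C1q gate, and 822 and 660 CPM without the 4 cells. Melanoma genes, which the rule kept low, were at 1851 and 1037 CPM, against 1360 and 1209 CPM in the C1q gate. The dendritic cell list held 40 and 26 UMIs, and 6 and 0 without the 4 cells. The B and plasma cell list held 6 and 0 UMIs, the fibroblast list 2 and 2, the endothelial list 2 and 0, and the list of neutrophils, mast cells and basophils 0 and 0. Globin and other red cell genes held 4 and 0 UMIs. The innate lymphoid list, which T cells share in part (Il7r, Gata3, Icos), held 26 and 19 UMIs.

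These cells were shallow beside C1q-gate and melanoma-gate cells, and close in depth to otherwise eligible cells with 1 rule marker, whose medians were 808 and 967 UMIs. The median was 714 UMIs and 444.5 genes per cell in the Atf4 WT/WT library and 788 UMIs and 448.5 genes in the Atf4 Δ/Δ library, with a median of 4.30% and 4.75% mitochondrial UMIs. Between the lowest and the highest cell the range was 510 to 3174 UMIs and 529 to 2917 UMIs. Of the 48 and 16 cells, 35 and 10 had under 1000 UMIs, so many lay close to the lowest depth in the files. The depths of these cells overlapped over nearly their whole range in the 2 libraries, although kept cells as a whole were deeper in the Atf4 Δ/Δ library.

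**Figure D2:**
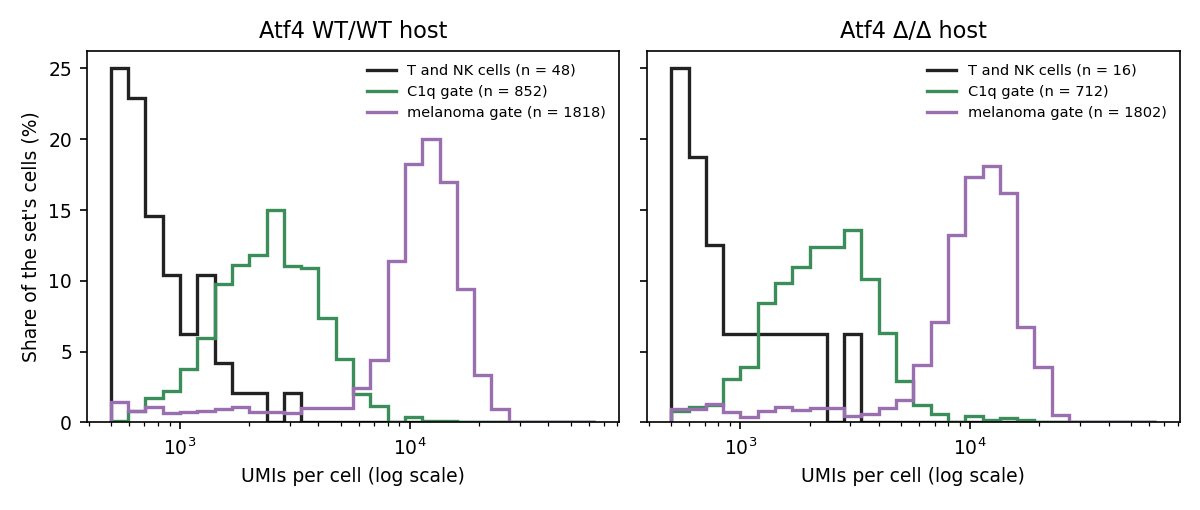
Share (%) of T and NK cells, C1q-gate cells and melanoma-gate cells by UMIs per cell (log axis) in each library. T and NK cells lie at the left edge with medians of 714 and 788 UMIs, below the C1q gate at 2436 and 2332.

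Within the depth band of 500 to 999 UMIs, T and NK cells made up 35 of 317 (11.0%) kept cells outside the melanoma gate in the Atf4 WT/WT library and 10 of 278 (3.60%) in the Atf4 Δ/Δ library. From 1000 to 1999 UMIs they were 11 of 795 (1.38%) and 4 of 518 (0.772%). From 2000 to under 4000 UMIs they were 2 of 644 and 2 of 520. At 4000 UMIs or more none was found among 287 and 439 cells, which allows shares of up to 1.28% and 0.837%. Most of the set thus lay in the shallowest band.

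T and NK cells made up 1.24% of kept cells (0.918 to 1.64) in the Atf4 WT/WT library and 0.450% (0.257 to 0.729) in the Atf4 Δ/Δ library. The log2 ratio of the shares, Atf4 Δ/Δ over WT/WT, was -1.47 (-2.38 to -0.62). Taken of the kept cells outside the melanoma gate, the shares were 2.35% and 0.912%, with a log2 ratio of -1.37 (-2.28 to -0.52). Within the band of 500 to 999 UMIs the log2 ratio was -1.62 (-2.80 to -0.57). With every cell thinned to 500 UMIs before the rule was applied, 41 and 12 cells were found. A share of cells after dissociation depends on the number of all other cells captured, and with 1 library per genotype the spread between tumours is unknown.

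By part, the counting interval excluded 0 for the NK part and not for the T part. The NK part was 26 of 3861 kept cells (0.673%, 0.440 to 0.985) in the Atf4 WT/WT library and 3 of 3557 (0.0843%, 0.0174 to 0.246) in the Atf4 Δ/Δ library, a log2 ratio of -3.00 (-5.37 to -1.29). The T part was 17 cells (0.440%) and 10 cells (0.281%), a log2 ratio of -0.65 (-1.94 to 0.56), with an interval that included 0. Among the T and NK cells themselves, the NK part took 54.2% (39.2 to 68.6) and 18.8% (4.05 to 45.6). The rule genes defined both parts, so the shares are a description. Without Nkg7 and Gzma in the rule, 4 and 0 NK-part cells were left.

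**Figure D3:**
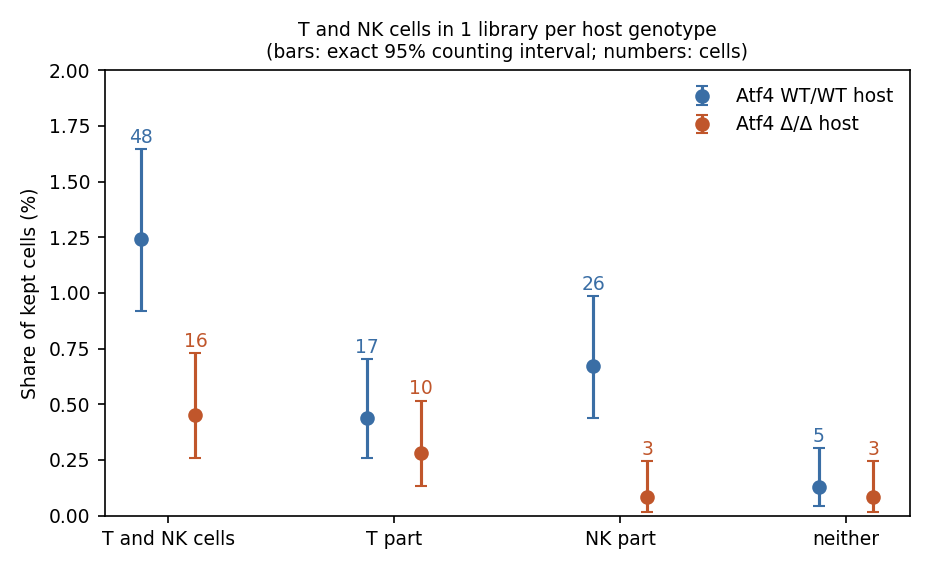
Share of kept cells (%) that were T and NK cells, and of the T part, NK part and cells in neither, in the 2 libraries, with exact 95% counting intervals and the number of cells above each. The NK-part share was 0.673% in the Atf4 WT/WT library and 0.0843% in the Atf4 Δ/Δ library, and the T-part intervals overlap.

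The NK part was checked against NK genes that the rule did not use. At least 1 of 16 NK receptor genes was detected in 25 of 26 NK-part cells of the Atf4 WT/WT library, against 8 of 17 T-part cells. It was detected in 3 of 3 and 2 of 10 such cells of the Atf4 Δ/Δ library. The list summed to 4123 CPM in the NK part and 1512 CPM in the T part of the Atf4 WT/WT library, a log2 difference of 1.45 (0.77 to 2.19), and to 3179 and 485 CPM in the Atf4 Δ/Δ library, 2.71 (1.06 to 4.49). Without the 4 cells the difference was 2.09 (1.22 to 3.09) in the Atf4 WT/WT library. Of the receptors, Klrd1 had 24 UMIs in 14 NK-part cells and 11 in 6 T-part cells, Klra4 12 and 1, Klra7 12 and 1, and Klrk1, the stress-ligand receptor NKG2D, 12 and 1.

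Among all genes with at least 20 UMIs in the parts, 17 of 250 (6.8%) were at least 2-fold higher in the NK part and 10 (4%) in the T part of the Atf4 WT/WT library. The numbers were 5 of 130 (3.85%) and 9 (6.92%) in the Atf4 Δ/Δ library. AW112010, an interferon-inducible transcript, had 102 UMIs in 26 of 26 NK-part cells and 23 in 10 of 17 T-part cells of the Atf4 WT/WT library, a log2 difference of 1.44 (0.78 to 2.16). Ccl5 had 184 UMIs in 22 NK-part cells and 63 in 9 T-part cells, 0.84 (0.42 to 1.28). A single T-part cell held 35 of those 63 Ccl5 UMIs. Ccl5 had 15 and 3 UMIs in the parts of the Atf4 Δ/Δ library.

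Tyrobp and Fcer1g encode the adaptors DAP12 and Fc receptor gamma chain, which activating NK receptors signal through and which myeloid cells also use. Tyrobp had 44 UMIs in 20 of 26 NK-part cells of the Atf4 WT/WT library, and its 21 T-part UMIs all lay in the Lyz2-rich cell. Without the 4 cells, Tyrobp was at 39 and 0 UMIs in the NK and T parts and Fcer1g at 31 and 1. Tyrobp was then at 9 and 0 and Fcer1g at 6 and 0 in the Atf4 Δ/Δ library. The adaptors thus marked the NK part of both libraries once these cells were set aside, although C1q-gate cells also carried Fcer1g in 70.8% and 78.4% of cells at 500 UMIs. Irf8, a transcription factor of NK and myeloid cells, was at 13 and 8 UMIs in the Atf4 WT/WT parts, all 8 of them in the Lyz2-rich cell, and at 4 and 0 in the Atf4 Δ/Δ parts.

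Granzyme genes other than Gzma were rarer. Gzmb had 14 UMIs in 8 NK-part cells and 4 in 2 T-part cells of the Atf4 WT/WT library and 0 in the Atf4 Δ/Δ library. Prf1, perforin, had 6 UMIs in 4 NK-part cells and 4 in 2 T-part cells, and 1 UMI in each part of the Atf4 Δ/Δ library. The whole cytotoxic granule list without Gzma and Nkg7 (17 genes) gave 4165 and 3024 CPM in the NK and T parts of the Atf4 WT/WT library, a log2 difference of 0.46 (-0.06 to 1.01), and 0.74 (0.12 to 1.39) without the 4 cells. It gave 2826 and 1454 CPM in the Atf4 Δ/Δ library, 0.96 (-0.45 to 2.23). A gene of the list was seen in 14 of 17 and 8 of 10 T-part cells. Of the 44 and 18 T-part UMIs of the list, however, Srgn gave 19 and 12 and Lamp1 1 and 4. A granzyme gene, Gzma included, was seen in 5 of 17 and 0 of 10 T-part cells.

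**Figure D4:**
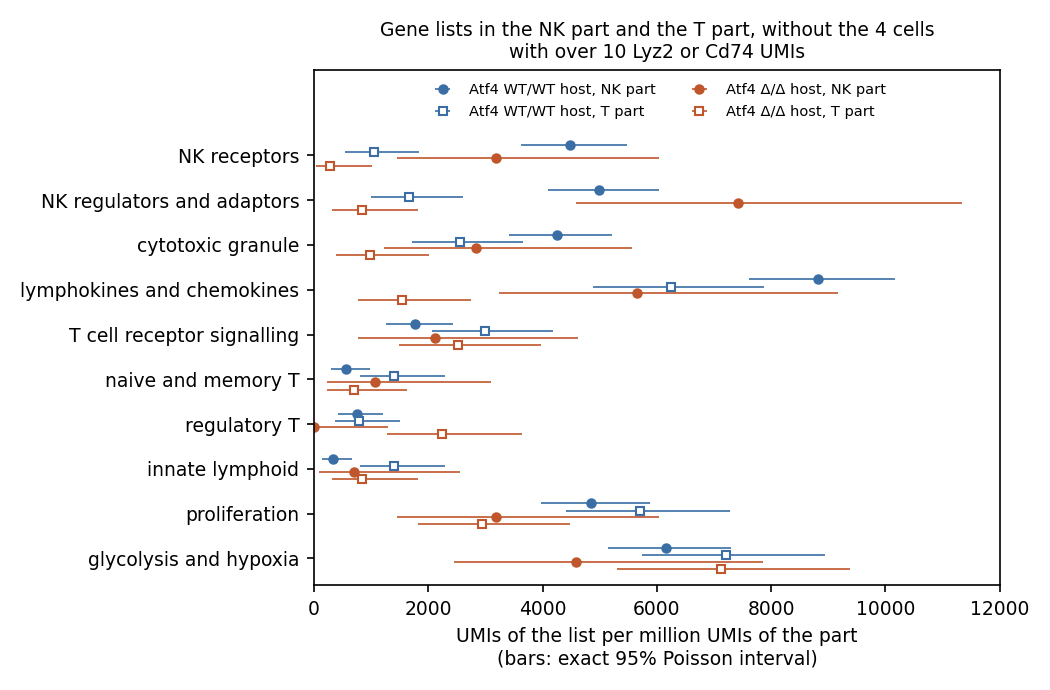
Summed CPM of 10 gene lists in the NK part (filled circles) and T part (open squares) of each library, without the 4 cells rich in Lyz2 or Cd74, with exact 95% Poisson intervals. NK receptors stand higher in the NK part of both libraries (4478 against 1055 CPM and 3179 against 280 CPM), and most intervals of the Atf4 Δ/Δ library are wide.

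The T part was read through genes of T cells outside the rule. The list of T cell receptor signalling genes (15 genes with Lck, Lat, Cd28 and Trbc1) summed to 2749 CPM in the T part and 1641 CPM in the NK part of the Atf4 WT/WT library, a log2 difference NK over T of -0.74 (-1.42 to -0.07). The sums were 2181 and 2119 CPM in the Atf4 Δ/Δ library, a log2 difference of -0.04 (-1.61 to 1.26). Cd28, the costimulatory receptor of T cells, had 6 UMIs in 4 T-part cells and 1 UMI in the NK part. Il7r and Ltb, the interleukin 7 receptor and lymphotoxin beta of resting T and innate lymphoid cells, had 6 and 9 UMIs in the T part and 0 and 0 in the NK part of the Atf4 WT/WT library. Il7r had 6 and 0, and Ltb 7 and 1, in the Atf4 Δ/Δ library, where Cd28 had 4 and 2.

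The receptor chains themselves were sparse. Trac was detected in 5 of 17 and 3 of 10 T-part cells, and Trbc1 or Trbc2 in 10 and 7. Trbc1 had 9 UMIs in 5 T-part cells and 11 UMIs in 7 of 26 NK-part cells of the Atf4 WT/WT library, so beta chain transcripts were not limited to the T part. Transcripts of gamma or delta segments (Trdc, Trdv4, Tcrg-C1, Tcrg-C2 or Tcrg-C4) were found in 9 cells of the Atf4 WT/WT library, 5 in the T part and 4 in the NK part, and in 3 cells of the Atf4 Δ/Δ library, 2 of them in the T part. None of these 12 cells had a Trac UMI, and 3 had a beta constant UMI. A beta variable segment, Trbv20, was seen as 1 UMI in the Atf4 WT/WT library.

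T cell subsets could not be told at this depth. Cd4 had a UMI in 0 of 48 and 1 of 16 cells, and Cd8a or Cd8b1 in 1 and 3. Foxp3, the defining factor of regulatory T cells, had 0 and 1 UMI. The wider regulatory T list of 10 genes, most of which activated T and NK cells share, had 29 UMIs in the Atf4 WT/WT library and 33 in the Atf4 Δ/Δ library, a log2 ratio of 1.50 (0.74 to 2.27). Its Atf4 Δ/Δ UMIs all lay in the T part, with Tnfrsf9 at 8, Tnfrsf18 at 7, Ikzf2 at 6 and Il2ra at 5. The 2 Cd74-rich cells of that library held 17 of the 33, and without the 4 cells the log2 ratio was 0.88 (-0.11 to 1.83).

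Atf4 (chr15:80255184-80257541), the deleted gene, was too rare in T and NK cells to check the genotype in them. It had 6 UMIs in 6 of 48 cells of the Atf4 WT/WT library (139 CPM) and 1 UMI in 1 of 16 cells of the Atf4 Δ/Δ library (57.6 CPM), a log2 ratio of -1.27 with an interval from -6.79 to 1.77. In the C1q-gate cells of the same libraries, also of the host, Atf4 was at 185 CPM (430 UMIs) and 50.6 CPM (94 UMIs). In melanoma-gate cells, which were not deleted, it was at 225 and 201 CPM. The deletion was thus visible in host cells with enough UMIs, whereas in T and NK cells a change was not detectable at this depth. The count tables do not show which exon a UMI came from.

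Genes known as ATF4 targets were also rare. Of 42 listed genes, 26 had a UMI in these cells and none reached 20 UMIs. Their sum was 85 UMIs (1967 CPM) in the Atf4 WT/WT library and 25 UMIs (1441 CPM) in the Atf4 Δ/Δ library, a log2 ratio of -0.45 (-1.15 to 0.21). Slc38a2, a neutral amino acid transporter, had 11 and 6 UMIs, Cebpb, a bZIP factor that pairs with ATF4, 10 and 2, and Slc3a2, the heavy chain of amino acid exchangers, 7 and 3. Asns, Trib3, Chac1 and Slc7a11, targets that many stressed cells raise, had 0 UMIs in both. The list of 11 kinases and factors upstream of ATF4 had 10 and 2 UMIs.

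Across all genes with at least 20 UMIs in the T and NK cells of both libraries together, 34 of 374 (9.09%) were at least 2-fold lower and 19 (5.08%) at least 2-fold higher in the Atf4 Δ/Δ library, 53 (14.2%) in all. The median log2 ratio was -0.01. Without the 4 cells, 4 of 299 genes were at least 2-fold higher.

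Among the genes with at least 50 UMIs, the 10 lowest in the Atf4 Δ/Δ library included Xist, Ccl5, Ndufa4, Hmgb2, AW112010, Emb, Btf3, Tmsb10 and Sub1. Xist was at 50 UMIs in 25 cells and 1 UMI in 1 cell, as in the C1q gate, and the 4 Y-linked genes at 0 and 3 UMIs. Ccl5 was at 258 UMIs in 34 of 48 cells (5970 CPM) and 24 UMIs in 7 of 16 cells (1383 CPM), a log2 ratio of -2.11 (-2.78 to -1.50), and -1.72 (-2.39 to -1.11) without the 4 cells. In the NK part alone it was 184 and 15 UMIs, -0.55 (-1.41 to 0.21), and in the T part 63 and 3 UMIs, -4.16 (-6.47 to -2.55), with 35 of the 63 in 1 cell as above. AW112010 was at 141 and 21 UMIs, -1.43 (-2.17 to -0.76), at -0.28 (-1.38 to 0.66) in the NK part alone and at -0.83 (-2.02 to 0.26) in the T part. The counting interval thus excluded 0 in the T part for Ccl5, in neither part alone for AW112010, and in the pooled cells for both. It takes UMIs as independent and does not cover the spread between cells, and Ccl5 was seen in 9 and 2 T-part cells. Both genes were also named for the size of this ratio.

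Hmgb2, a chromatin protein of dividing cells, was at 57 UMIs in 17 cells and 7 UMIs in 5 cells, -1.71 (-3.09 to -0.57). Ndufa4, of the respiratory chain, was at 45 and 5 UMIs, -1.85 (-3.54 to -0.53). Tmsb10, an actin-binding thymosin, was at 220 and 45 UMIs, -0.97 (-1.47 to -0.51), and -0.12 (-1.08 to 0.70) in the NK part alone. Emb, a partner of lactate transporters, was at 43 and 7 UMIs, -1.30 (-2.70 to -0.14), with an interval from -2.70 to 0.07 without the 4 cells. Btf3 was at -0.98 (-2.01 to -0.07) and Sub1 at -0.95 (-2.10 to 0.05), an interval that included 0.

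The 10 highest were Lyz2, S100a4, Cyba, Vim, Cd74, H2-Aa, Fth1, Rps10, Rpl29 and Crip1. Lyz2, at 48 and 52 UMIs, and Cd74, at 62 and 51, belonged to the 4 cells described, and without those cells Cd74 was at 6 and 1 UMIs and Lyz2 at 3 and 1. S100a4, a calcium-binding protein of activated and motile cells, was at 39 UMIs in 19 cells (902 CPM) and 42 UMIs in 11 cells (2420 CPM), a log2 ratio of 1.42 (0.76 to 2.09), and 1.33 (0.51 to 2.13) without the 4 cells. It was at 21 and 21 UMIs (1846 and 2935 CPM) in the T part without the 4 cells, and at 9 and 3 (420 and 1060 CPM) in the NK part. The T part took 35.4% of the Atf4 WT/WT cells and 62.5% of the Atf4 Δ/Δ cells, and a difference in S100a4 within a part was not tested. Fth1, the ferritin heavy chain that stores iron, was at 103 and 73 UMIs, 0.82 (0.37 to 1.27), and 0.65 (0.08 to 1.21) without the 4 cells. Vim and Cyba had intervals that included 0 without the 4 cells, at 0.74 (-0.31 to 1.73) and 0.90 (-0.27 to 2.0).

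NK and cytotoxic genes were lower in the Atf4 Δ/Δ cells when both parts were pooled. The 16 NK receptor genes summed to 131 UMIs (3031 CPM) and 15 UMIs (864 CPM), a log2 ratio of -1.81 (-2.69 to -1.04). Of these genes, Klra7 had 13 and 0 UMIs and Klrc2 9 and 0. The Atf4 Δ/Δ cells held 28.7% of all UMIs of the T and NK cells, so a count of 0 for genes this rare does not show their absence. Only Klrd1 reached 20 UMIs, at 38 and 8 (-0.93, -2.24 to 0.19). In the NK part alone the list was at -0.38 (-1.55 to 0.61), with 98 and 9 UMIs. Within the NK part, a difference between the libraries was thus not detectable with 3 Atf4 Δ/Δ cells. In the T part the list was at 22 and 6 UMIs, -1.64 (-3.23 to -0.29), and at 12 and 2 UMIs (1055 and 280 CPM) without the 4 cells.

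The cytotoxic granule list was at 152 and 27 UMIs and a log2 ratio of -1.18 (-1.82 to -0.58). Of its 3 genes with at least 20 UMIs 1 was at least 2-fold lower, and their median was -0.79. Gzmb was at 18 and 0 UMIs, a log2 ratio of -1.27 or lower against a floor of 3 UMIs, and Serpinb9, the granzyme B inhibitor of the cytotoxic cell itself, at 18 and 2 UMIs. In the NK part alone the list was at -0.56 (-1.81 to 0.47), and in the T part at 44 and 18 UMIs, -1.06 (-1.94 to -0.24), or 29 and 7 UMIs (2549 and 978 CPM) without the 4 cells. Lymphokines and chemokines, of which Ccl5 gave 258 of 290 and 24 of 42 UMIs, were at -1.47 (-1.97 to -1.0) pooled, -0.57 (-1.40 to 0.17) in the NK part and -1.63 (-2.43 to -0.90) in the T part. With all cells in, the interval for all 3 lists thus excluded 0 in the T part and included it in the NK part. Whether the parts differed in this was not tested. Of the T-part NK receptor UMIs, the Lyz2-rich Atf4 WT/WT cell held 10 of 22, and 1 Cd74-rich Atf4 Δ/Δ cell held 4 of 6. No interval of the T-part ratios is given without the 4 cells, so how far these results rest on those cells was not tested.

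Summed over the list, T cell receptor signalling and most lists of general functions stayed near the median of all genes. T cell receptor signalling was at 89 and 36 UMIs and 0.01 (-0.59 to 0.58), with Ptprc, the common leukocyte antigen CD45, at 32 and 8 UMIs. The 2 genes of that list with at least 20 UMIs had a median of -0.82. In the T part alone its sum was at -0.33 (-1.09 to 0.41). Glycolysis and hypoxia was at 0.09 (-0.24 to 0.41), with 0 of 7 measured genes past 2-fold and Gapdh at 50 and 22 UMIs. MHC class I was at -0.10 (-0.39 to 0.19), and heat shock proteins at -0.19 (-0.50 to 0.12). Proliferation was lower, at 236 and 62 UMIs and -0.61 (-1.04 to -0.20). Of its 4 measured genes 3 were at least 2-fold lower (Hmgb2, Stmn1 and Tubb5, the last 2 with intervals that included 0) and H2afz was at -0.06 (-0.69 to 0.55). Mki67 or Top2a, which mark cells in division, had a UMI in 6 of 48 and 2 of 16 cells.

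Immediate early genes, which tissue dissociation also raises, were at 181 and 106 UMIs, 0.54 (0.18 to 0.90), and at 0.29 (-0.16 to 0.73) without the 4 cells. Nfkbia, the NF-kB inhibitor, was at 17 and 22 UMIs (1.69, 0.71 to 2.69), and at 17 and 9 (0.72, -0.63 to 1.97) without them, and Btg2 at 21 and 4 (-1.08, -3.08 to 0.49). Checkpoint receptors and ligands were at 51 and 36 UMIs, 0.81 (0.16 to 1.46), and at 0.64 (-0.13 to 1.37) without the 4 cells. The exhaustion list was at 33 and 18 UMIs and 0.44 (-0.47 to 1.31). Interferon-stimulated genes were at 62 and 27 UMIs, 0.12 (-0.59 to 0.79). Without the 4 cells they were at 49 and 7 UMIs, -1.17 (-2.56 to -0.02). All 14 Atf4 Δ/Δ UMIs of Ifitm3 lay in those cells and were part of the UMIs lost.

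**Figure D5:**
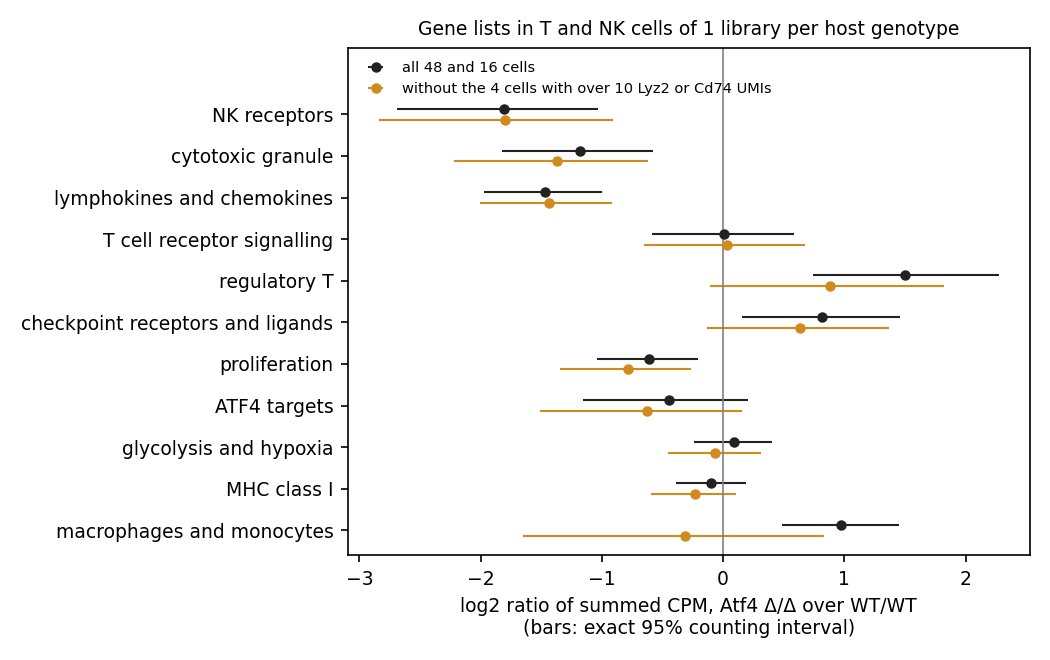
Log2 ratio of the summed CPM of 11 gene lists, Atf4 Δ/Δ over WT/WT, in all T and NK cells (black) and without the 4 cells rich in Lyz2 or Cd74 (orange), with exact 95% counting intervals. NK receptors (-1.81), cytotoxic granule genes (-1.18) and lymphokines (-1.47) lie left of 0 in both, and the macrophage list moves from 0.97 to -0.32.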

How the data were processed

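The authors deposited UMI counts per gene and barcode, with no normalization, as Cell Ranger tables (version 3.1.0 per the submitters' processing notes, GRCm38, Ensembl genes). The labels name the 10x 3' V3 kit and the study's methods a V2 kit, so the chemistry is not settled here. The cell filter was that of the study. The rule, the parts and 36 gene lists were chosen with earlier results of these data known. UMIs were summed per library and set of cells and divided by the set's total (CPM). Shares had Clopper-Pearson intervals, CPM had Poisson intervals and log2 ratios had conditional binomial intervals, all exact at 95%. These cover counting error only. A count of 0 was set to a floor of 3 UMIs, and no ratio was given where the floor left no bound. Counts of 1 and 2 were also raised to 3 in the counts of genes past 2-fold, the medians over genes and the ratios to other cells, but not in the other ratios printed. No p-value was computed, since each genotype had 1 library. Genes with at least 20 UMIs were counted at 2-fold. Named were list genes, the 10 genes each way between genotypes and between parts, and the 15 furthest above other cells, all with at least 50 UMIs. A gene that met this rule is not reported here. On 1 set of simulated Poisson counts, the model that the intervals assume, 96.8% of them held the true ratio. Clumping of UMIs within cells was not simulated, so this does not test the intervals on these cells. Of 31053 gene IDs 30934 matched GENCODE vM21, used for positions. Python 3.11.15, scipy 1.17.1 and scanpy 1.11.5 (Scrublet) were used.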

Additional observations from a re-analysis of the deposited data

How the results depend on the processing

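No paired analysis was possible because only 1 library was made per genotype. Of the values for the shares, Atf4, the gene counts and the lists of NK receptors, cytotoxic granule, T cell receptor signalling, ATF4 targets and glycolysis genes under the alternatives, 144 stayed within the counting interval (within 1.5 times for counts) and 18 moved. Of the other values, 594 stayed, 48 moved and 12 reversed. The share of T and NK cells stayed lower in the Atf4 Δ/Δ library under every alternative run. For the cells that held Xist but none of the Y-linked genes (25 and 1), this is not informative. Their share was taken of all kept cells, and Xist itself differed between the libraries. Genes at least 2-fold lower, 34 in the report, were 20 of 224 without Nkg7 and Gzma in the rule, 53 of 445 with melanoma genes under 1% (which adds 1 Atf4 Δ/Δ cell), 15 of 208 in cells that held Xist but none of the Y-linked genes, 8 of 162 at 50 UMIs, 16 of 182 in the T part and 6 of 186 in the NK part. Genes at least 2-fold higher, 19 in the report, were 10 with at least 3 markers, 12 without Nkg7 and Gzma, 5 at 50 UMIs, 307 of 1880 at 5 UMIs, 7 in the T part, 7 in the NK part and 4 without the 4 Lyz2- or Cd74-rich cells. Fewer cells or genes entered most of these. With melanoma genes under 1%, the added cell raised the UMIs of the Atf4 Δ/Δ T and NK cells from 17353 to 26651. T cell receptor signalling then moved to -0.61, glycolysis to 0.50 and proliferation to 0.0045, and the melanoma list changed sign to 1.05. In the NK part alone, NK receptors were at -0.38, cytotoxic granule at -0.56 and glycolysis at -0.38. There NK regulators and adaptors changed sign from -0.48 in all cells to 0.60, and Vim from 1.12 to -0.018. Cd74 went from 1.03 to -1.10 and H2-Aa from 0.85 to -0.35. In the Xist cells (1 of them from the Atf4 Δ/Δ library), NK regulators and adaptors were at 0.57 and proliferation at 0.13. Rps10 changed sign there from 0.64 to -0.19 and Rpl29 from 0.62 to -0.19. Without the 4 cells, chosen after seeing the data as were thinning to 500 UMIs, the band under 1000 UMIs, leaving out shared barcodes and a T part by 1 marker, the macrophage list was at -0.32 and Cd74 at -0.95. The cause of these moves was not tested. No value was had for the NK-part share without Nkg7 and Gzma (0 Atf4 Δ/Δ cells) nor for Atf4 in the NK part or in the Xist cells.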
